A study of Mus musculus with 24 samples.

Results

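The mitochondrial chromosome of the mouse supplied 37 of the 54532 rows of the deposited count table, chosen as every row placed on chromosome MT. They comprised 13 mRNAs, 2 rRNAs and 22 tRNAs. Mitochondrial DNA is a small circular genome whose strands are both copied into long RNAs. The tRNAs that lie between most of its genes are cut out of these RNAs, and the released mRNAs receive short poly(A) tails. Its mRNAs encode core subunits of respiratory complexes I, III and IV and of the ATP synthase, while complex II and most other subunits are encoded in the nucleus. Mitochondrial function in the striatum has long been studied in Huntington's disease, and poisons of complex II damage striatal neurons.

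RNA was sequenced from the striatum of 24 mice labelled as strain C57BL/6, with 6 libraries for each of 4 genotypes. WT mice carried neither alteration. TyrobpKO mice lacked Tyrobp, the gene of an adaptor protein of microglial surface receptors. Q175 mice were heterozygous for the Q175 allele, an expanded CAG repeat knocked into the Huntingtin gene, and Q175_TyrobpKO mice had that allele with the Tyrobp deletion. Each genotype had 3 males (replicates 1 to 3) and 3 females (replicates 4 to 6), and tissue came from a single hemisphere per animal. Age was not stated. All 12 animals without Tyrobp carried numbers with a prefix that no other animal had, all 6 Q175 animals had another, and WT replicate 3 had a number of the Q175 type. The labels do not say what a prefix marks. Whatever it marks cannot be told apart from Tyrobp genotype in the contrasts of the deletion, and in Q175 against WT it cannot be told apart from the Q175 allele, save for WT replicate 3. Q175_TyrobpKO against WT crosses prefixes too, and Q175_TyrobpKO against TyrobpKO was made within a prefix.

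Total counts ran from 25482686 to 34626720 per library. Any 2 libraries of a genotype (60 pairs) differed by more than sampling noise, with a mean chi-square of 6.89 to 42.6 per gene among those with 20 reads or more. Markers of striatal projection neurons summed to 5196 CPM (counts scaled to a common library size by TMM) in the lowest library and 13842 in the highest. None of the 15 was at 0 over all libraries together. Q175 replicate 3 stood apart in markers of choroid plexus, the secretory tissue of the ventricles. They summed to 4275 CPM there against a median of 57.4 over all libraries.

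Mitochondrial genes took 33712005 reads, or 4.99% of all counts. The mRNAs held 86.8% of these reads, the rRNAs 12.8% and the tRNAs 0.391%. The mitochondrial share of a library ran from 3.96% in WT replicate 2 to 6.58% in TyrobpKO replicate 5. Its mean ± SD over 6 libraries was 4.91% ± 0.636 for WT, 5.29% ± 0.690 for TyrobpKO, 5.08% ± 0.369 for Q175 and 4.69% ± 0.570 for Q175_TyrobpKO. These ranges overlapped between all genotypes. In bulk tissue, fewer cells of a type and less RNA per cell cannot be told apart.

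Levels were uneven along the chromosome. Scaled for length, mt-Co1, which encodes the catalytic subunit of complex IV, led at a median of 11831 CPM per kb over the 24 libraries. It was followed by mt-Cytb, the mitochondrial subunit of complex III, at 6216 CPM per kb. The complex I genes mt-Nd1 (4943), mt-Nd2 (2994), mt-Nd4 (2774), mt-Nd5 (2395) and mt-Nd6 (2388 CPM per kb) came next. mt-Co1 exceeded mt-Cytb, mt-Cytb exceeded mt-Nd1 and mt-Nd1 exceeded mt-Nd2 in 24 of 24 libraries. The order of mt-Nd5 and mt-Nd6 held in only 15 of 24, so that these neighbours did not differ beyond their spread. Of all 54532 rows ranked by CPM per kb, mt-Co1, mt-Cytb, mt-Nd1 and mt-Nd2 took ranks 2 to 5.

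The other 6 mRNAs lie side by side between positions 7013 and 10173 and were far lower. They were mt-Nd3 of complex I at a median of 185 CPM per kb, mt-Atp6 of the ATP synthase at 84.3, mt-Co3 of complex IV at 83.7, mt-Co2 of complex IV at 70.9, mt-Nd4l of complex I at 47.2, and mt-Atp8 of the ATP synthase at 20.7. Together they held 0.603% of mitochondrial mRNA reads. Within a library, the median of the 7 abundant mRNAs was 33.4 to 53.0 times the median of these 6 in CPM per kb. The lowest abundant value in any library, 1472 CPM per kb, lay above the highest value of the low set, 263. mt-Co1 and mt-Co2, which join in the same complex, were thus listed at 11831 and 70.9 CPM per kb.

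Copies of mitochondrial DNA in the nuclear genome cover this stretch. In the GENCODE release M21 annotation (GRCm38), pseudogenes named Gm28661, Gm10925, Gm28437, Gm28438 and Gm28439 lie on chromosome 1 between 24611535 and 24615565, all on the minus strand. They match the sequences of mt-Co2, mt-Atp6, mt-Co3, mt-Nd3 and the first 876 bases of mt-Nd4 without a mismatch over 342 to 876 aligned bases. A further pseudogene, Gm10222 (24612407 to 24612700), was found by sequence to match mt-Nd4l. The first 60 bases of mt-Co3 and of its copy are shown because reads from them cannot be assigned by sequence.

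mt-Co3: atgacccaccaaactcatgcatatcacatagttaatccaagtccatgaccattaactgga
Gm28437: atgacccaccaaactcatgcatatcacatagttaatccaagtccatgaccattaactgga

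The copy of mt-Co1, Gm29216 (chromosome 1, 24615706 to 24616197), matches only from base 1063 of the 1545 bases of mt-Co1 to its end, with 1 mismatch (A1066T, counted from the first base of mt-Co1). The start of the matching stretch is shown from base 1054 of mt-Co1 and base 1 of Gm29216. Capitals mark the 6 bases that differ.

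mt-Co1: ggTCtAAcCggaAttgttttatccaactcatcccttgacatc
Gm29216: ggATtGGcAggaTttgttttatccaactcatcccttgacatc

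The share of windows of 100 bases that also occur, letter for letter, in an annotated nuclear transcript was 99.9% for mt-Co3, 99.5% for mt-Co2 and for mt-Atp6, 98.5% for mt-Nd4l and 97.6% for mt-Nd3. It was 60.8% for mt-Nd4, 30.8% for mt-Co1 and 3.19% for mt-Nd2, and 0% for mt-Nd1, mt-Nd5, mt-Nd6, mt-Cytb and both rRNAs. The 5 mRNAs with 97.6% or more of windows shared were all in the low set, as was mt-Atp8, for which no such window was found. Only annotated transcripts were searched, and not the bases between Gm10925 and Gm28661, the copies of mt-Atp6 and mt-Co2. Since mt-Atp8 lies between those 2 genes, its value does not show that it lacks a copy. How reads with several matches were counted is not given in the sources used here, and its part in the low values was not tested. Levels of the 5 genes with 97.6% or more of windows shared, and of the copies, are therefore uncertain. The same holds in part for mt-Nd4, mt-Co1 and, less, mt-Nd2, and so for the place of mt-Nd4 in the order above. That of mt-Atp8 is uncertain too, because a copy outside annotated transcripts would not have been found.

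**Figure D1:**
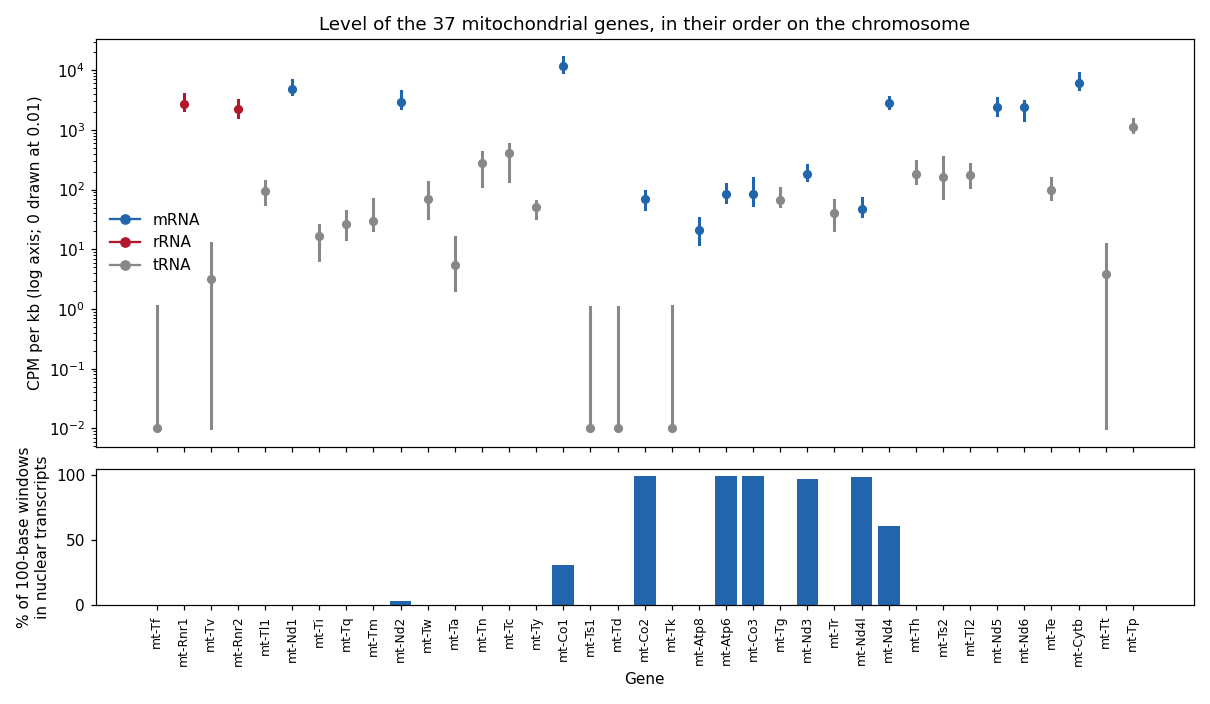
Upper panel: level of each of the 37 mitochondrial genes in CPM per kb on a log axis, in chromosome order, with points at the median of 24 libraries and lines from the lowest to the highest library (0 is drawn at 0.01). Lower panel: percent of 100-base windows of each gene found in annotated nuclear transcripts; genes under 100 bases have no window. The 6 mRNAs from mt-Co2 to mt-Nd4l sit at medians of 20.7 to 185 CPM per kb while the other 7 sit at 2388 or above.

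Neighbouring genes also share bases on the chromosome. mt-Atp8 and mt-Atp6 overlap by 43 bases, shown here in capitals at the end of mt-Atp8, so that these bases of the 204 of mt-Atp8 belong to both genes.

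mt-Atp8: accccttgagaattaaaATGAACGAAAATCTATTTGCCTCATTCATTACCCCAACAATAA

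The overlap is 7 bases for mt-Nd4l and mt-Nd4, and 14 bases for mt-Nd5 and mt-Nd6, which lie on opposite strands. Since use of strand in counting is not stated, reads of mt-Nd6 and of RNA from the other strand cannot be told apart. The 9 genes annotated on the minus strand held 2.75% of mitochondrial reads, most of them in mt-Nd6. The mRNAs mt-Co3, mt-Nd4 and mt-Cytb end in the annotation on an incomplete stop codon, a single T, which the poly(A) tail completes. Their last 30 bases are shown with that T in capitals, because it marks transcripts whose reading frame is finished only after RNA processing.

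mt-Co3: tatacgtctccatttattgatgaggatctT
mt-Nd4: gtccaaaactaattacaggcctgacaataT
mt-Cytb: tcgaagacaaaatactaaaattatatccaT

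The rRNAs form the core of the mitochondrial ribosome. mt-Rnr1, of the small subunit, was at a median of 2773 CPM per kb and mt-Rnr2, of the large subunit, at 2234, with a ratio of mt-Rnr2 to mt-Rnr1 reads of 1.21 to 1.45 over the 24 libraries. They are made from the start of the same long RNA as most mRNAs. The median of mt-Rnr1 lay among those of the abundant mRNAs, and that of mt-Rnr2 just below the lowest of them, mt-Nd6 at 2388 CPM per kb.

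The tRNAs were covered very unequally. mt-Tp, the proline tRNA, had 51829 reads over the 24 libraries, mt-Tc, the cysteine tRNA, 18268, and mt-Tn, the asparagine tRNA, 12666. All 3 are annotated on the minus strand. At the other end, mt-Tk had 12 reads, mt-Tf 8, mt-Ts1 6 and mt-Td 3, and mt-Tv had 170. These 5 did not pass the filter on low counts, and they were at 0 in up to 22 of 24 libraries. The sequences of the 3 tRNAs with most reads are shown with those of the 2 with fewest, both of which lie between mt-Co1 and mt-Co2. All are 66 to 71 bases long.

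mt-Tp: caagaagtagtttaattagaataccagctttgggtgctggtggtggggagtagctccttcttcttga
mt-Tc: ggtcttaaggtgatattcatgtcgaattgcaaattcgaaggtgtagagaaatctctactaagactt
mt-Tn: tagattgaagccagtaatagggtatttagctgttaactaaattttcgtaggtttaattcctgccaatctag
mt-Ts1: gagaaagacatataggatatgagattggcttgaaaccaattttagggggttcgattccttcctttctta
mt-Td: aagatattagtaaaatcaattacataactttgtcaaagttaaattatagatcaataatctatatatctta

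Mature tRNAs are short and heavily modified. Whether these reads came from mature tRNAs or from longer RNAs cannot be told apart from the counts.

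The genotype contrasts were tested with edgeR's quasi-likelihood test over 19667 genes, of which 32 were mitochondrial: all 13 mRNAs, both rRNAs and 17 tRNAs. Genes whose p, adjusted by Benjamini-Hochberg across all 19667, fell under 0.05 are said to be called. Log2 fold changes are given with their standard error (SE).

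Q175 against WT asks what the Q175 allele changed with Tyrobp present. No mitochondrial gene was called by edgeR (0 of 32), while 9.63% of all genes tested were. None of the 32 had an unadjusted p under 0.05, against 22.6% of all genes, and DESeq2 and limma-trend also called 0. The median log2 fold change was 0.04 over the mRNAs, with 7 of 13 above 0, and 0.01 over all genes. The mRNAs ranged from -0.16 ± 0.11 (SE) for mt-Nd2 (edgeR adjusted p 0.432) to 0.20 ± 0.21 for mt-Co3 (edgeR adjusted p 0.628). mt-Co1 ran from 14800 to 21483 CPM in WT (median 17677) and from 16573 to 22322 in Q175 (median 18622). mt-Cytb ran from 5924 to 8795 CPM in WT (median 7320) and from 6633 to 8259 in Q175 (median 7100). For both genes the Q175 libraries lay almost wholly inside the WT range. The rRNAs were at -0.12 ± 0.09 (mt-Rnr1, edgeR adjusted p 0.469) and -0.12 ± 0.10 (mt-Rnr2, edgeR adjusted p 0.529). In the same contrast 13 of 15 markers of striatal projection neurons were called lower, with a median log2 fold change of -0.74.

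TyrobpKO against WT asks what loss of Tyrobp changed without the Q175 allele. edgeR called 0 of 32 mitochondrial genes, and 0.117% of all genes. DESeq2 and limma-trend called 0 as well. An unadjusted p under 0.05 was seen for 8 of 32 (25.0%), against 6.45% of all genes, and 30 of 32 lay above 0, with a smallest edgeR adjusted p of 0.749. All 13 mRNAs lay above 0, with a median of 0.17 against 0.00 over all genes. mt-Co2 ran from 32.0 to 51.8 CPM in WT (median 47.7) and from 38.7 to 64.6 in TyrobpKO (median 56.5), giving 0.28 ± 0.11 on the log2 scale (edgeR adjusted p 0.749). mt-Nd6 ran from 764 to 1435 CPM in WT (median 1243) and from 1219 to 1605 in TyrobpKO (median 1349), at 0.24 ± 0.11 (edgeR adjusted p 0.749). mt-Rnr2 was at 0.22 ± 0.10 (edgeR adjusted p 0.749). Every one of these ranges overlapped. The sign changed for mt-Nd4 under 7 of 33 alternatives, mt-Nd2 under 5, mt-Cytb under 3 and mt-Nd4l under 1.

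Q175_TyrobpKO against Q175 asks what loss of Tyrobp changed in carriers of the Q175 allele. edgeR called 0 of 32 mitochondrial genes, and 0.158% of all genes. DESeq2 and limma-trend called 0, and 1 gene, the tRNA mt-Tn, had an unadjusted p under 0.05, against 6.04% of all genes. Here 10 of 13 mRNAs lay below 0, with a median of -0.09, and 3 above. mt-Nd4l was at -0.25 ± 0.14 (edgeR adjusted p 0.846), mt-Nd2 at -0.17 ± 0.11 (0.851) and mt-Co1 at -0.14 ± 0.10 (0.858). The median of the mRNAs was 0.09 in males alone and -0.28 in females alone.

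The tRNA mt-Tn lay above 0 in both contrasts of the Tyrobp deletion, which share no library, and was called in neither. Its values were 8.17 to 29.96 CPM in WT (median 14.3) and 19.8 to 25.1 in TyrobpKO (median 23.9), giving 0.58 ± 0.22 on the log2 scale (edgeR adjusted p 0.749). They were 10.2 to 20.1 CPM in Q175 (median 12.7) and 18.1 to 23.7 in Q175_TyrobpKO (median 22.2), at 0.65 ± 0.22 (edgeR adjusted p 0.698). The lowest library without Tyrobp had 18.1 CPM, and 10 of the 12 with Tyrobp lay below it. The exceptions were Q175 replicate 4 at 20.1 and WT replicate 6, whose 29.96 CPM was the highest of all 24. The tRNA share of mitochondrial reads was on average higher without Tyrobp. It was 0.414% ± 0.0198 in TyrobpKO and 0.411% ± 0.0143 in Q175_TyrobpKO, against 0.375% ± 0.0555 in WT and 0.363% ± 0.0287 in Q175 (SD, n = 6), and WT replicate 6 had the highest value at 0.480%. The animal-number prefix separates the same libraries as the deletion does, so the deletion and whatever the prefix marks cannot be told apart here.

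Q175_TyrobpKO against TyrobpKO asks what the Q175 allele changed in the absence of Tyrobp. edgeR called 2 of 32 mitochondrial genes, both rRNAs and both lower, while 5.86% of all genes were called and 3.08% were called lower. mt-Rnr1 ran from 2584 to 3827 CPM in TyrobpKO (median 3071) and from 2032 to 2781 in Q175_TyrobpKO (median 2487). Of the Q175_TyrobpKO libraries 4 of 6 lay below every TyrobpKO library, and 5 of 6 TyrobpKO libraries lay above every Q175_TyrobpKO library. On the log2 scale this gave -0.38 ± 0.09 (edgeR adjusted p 0.0106). mt-Rnr2 ran from 3474 to 4962 CPM in TyrobpKO (median 4206) and from 2610 to 3890 in Q175_TyrobpKO (median 3421), again with 4 of 6 libraries below the whole TyrobpKO range. For this gene the value was -0.37 ± 0.10 (edgeR adjusted p 0.0206).

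The rRNA calls rested on few libraries. Without TyrobpKO replicate 5, neither was called (edgeR adjusted p 0.0535 for mt-Rnr1 and 0.0773 for mt-Rnr2). mt-Rnr2 was also lost without TyrobpKO replicate 3, Q175_TyrobpKO replicate 4 or Q175_TyrobpKO replicate 5 (edgeR adjusted p 0.0790, 0.0624 and 0.0624). In females alone mt-Rnr1 was at -0.52 (edgeR adjusted p 0.0505) and mt-Rnr2 at -0.56 (0.0220), and in males alone they were at -0.25 (0.468) and -0.19 (0.624). The difference between the sexes was itself not called for either gene (edgeR adjusted p 0.960 for both). The rRNAs were lower in Q175_TyrobpKO than in TyrobpKO, and were at 2811 ± 302 (mt-Rnr1) and 3664 ± 394 CPM (mt-Rnr2) in WT (mean ± SD, n = 6). The means of Q175_TyrobpKO were 2427 ± 274 and 3300 ± 446 CPM and those of TyrobpKO 3162 ± 454 and 4270 ± 530.5, so that WT lay between them.

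The mRNAs of this contrast lay mostly below 0 as well, in 12 of 13, with a median of -0.19 and none called. mt-Nd2 came nearest. It ran from 2948 to 4715 CPM in TyrobpKO (median 3522) and from 2401 to 3369 in Q175_TyrobpKO (median 2632), or -0.36 ± 0.11 in log2 (edgeR adjusted p 0.0575). For this gene 4 of 6 libraries of either genotype lay outside the range of the other. mt-Nd3 was at -0.30 ± 0.11 (edgeR adjusted p 0.115) and mt-Nd1 at -0.26 ± 0.09 (0.107). mt-Atp6, mt-Nd4l, mt-Cytb, mt-Co1, mt-Atp8, mt-Nd6, mt-Nd5, mt-Nd4 and mt-Co2 lay between -0.27 and -0.14, and mt-Co3 was at 0.25 ± 0.21 (edgeR adjusted p 0.584). The tRNA mt-Tp was at -0.25 ± 0.08 (edgeR adjusted p 0.0702). In males alone the median of the mRNAs was 0.01 and in females alone -0.42.

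**Figure D2:**
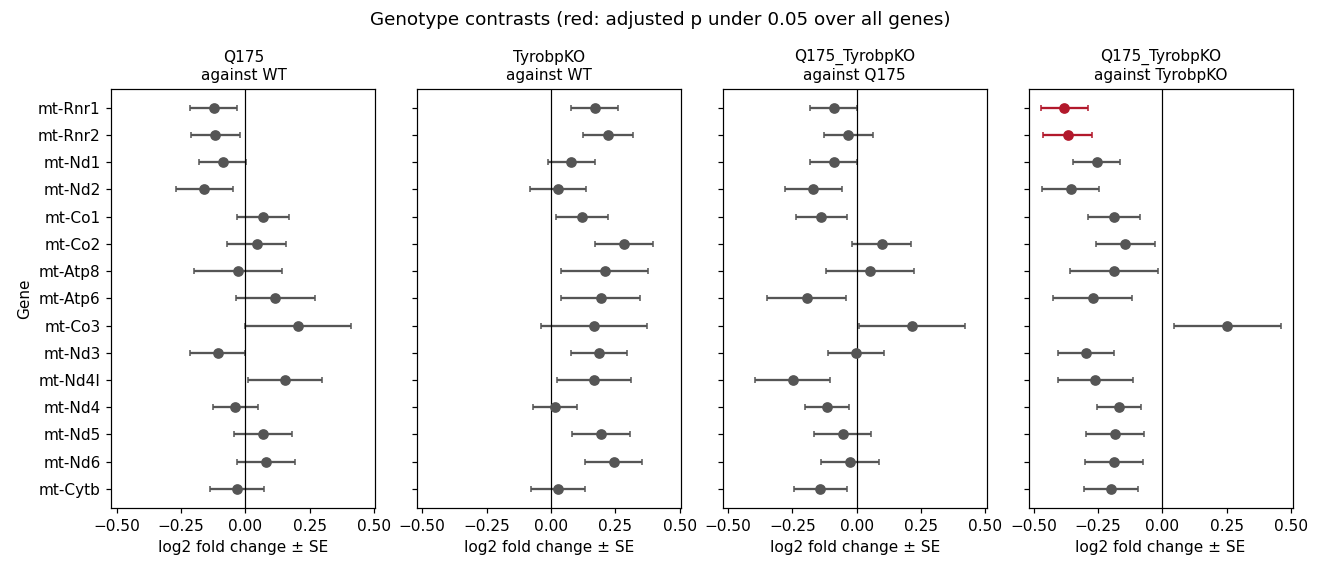
Log2 fold change ± SE of the 13 mRNAs and 2 rRNAs, in chromosome order, in 4 genotype contrasts (edgeR, 24 libraries). The called genes, in red, are mt-Rnr1 and mt-Rnr2 in Q175_TyrobpKO against TyrobpKO, at -0.38 and -0.37.

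Markers of other cell types moved in this contrast too, and their part in the rRNA result was not tested. Of 15 striatal projection neuron markers 7 were called lower, of 10 markers each of astrocytes, oligodendrocytes and endothelium 3 were, and of 10 microglial markers 0 were (0 at an unadjusted p under 0.05, and 0 by DESeq2 and limma-trend). Summed markers of oligodendrocytes, the myelin-forming cells, ran from 9952 to 14706 CPM in TyrobpKO and from 8107 to 10911 in Q175_TyrobpKO. Those of astrocytes ran from 4971 to 5389 and from 4065 to 4411, without overlap. Markers of cortical neurons, from tissue that borders the striatum, summed to 521 to 1070 CPM in TyrobpKO and 135 to 998 in Q175_TyrobpKO, with 0 of 10 called, again with 0 at an unadjusted p under 0.05 and 0 by DESeq2 and limma-trend. Choroid plexus and ependyma markers had the highest median log2 fold change of these lists, at 1.78, with 0 of 10 called by edgeR, DESeq2 or limma-trend and 1 at an unadjusted p under 0.05. They summed to 27.7 to 137 CPM in TyrobpKO (median 48.9) and 44.7 to 619 in Q175_TyrobpKO (median 134). No gene of these lists was at 0 over all libraries together, and single genotypes were not checked.

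Q175_TyrobpKO against WT compared mice with both alterations with those that had neither. edgeR called 1 of 32 mitochondrial genes, the methionine tRNA mt-Tm, against 9.44% of all genes (5.54% called lower). mt-Tm ran from 1.44 to 4.76 CPM in WT (median 3.20) and from 1.71 to 1.997 in Q175_TyrobpKO (median 1.80), giving -0.79 ± 0.23 on the log2 scale (edgeR adjusted p 0.0249). In WT 5 of 6 libraries lay above every Q175_TyrobpKO library and WT replicate 6 lay below them all. The gene had 1632 reads in all, and its call was lost without WT replicate 2 (edgeR adjusted p 0.100), without Q175_TyrobpKO replicate 5 (0.0571) and in females alone (0.555). mt-Nd2 was at -0.33 ± 0.11 (edgeR adjusted p 0.0623). mt-Co3 was at 0.42 ± 0.21 (edgeR adjusted p 0.242).

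**Figure D3:**
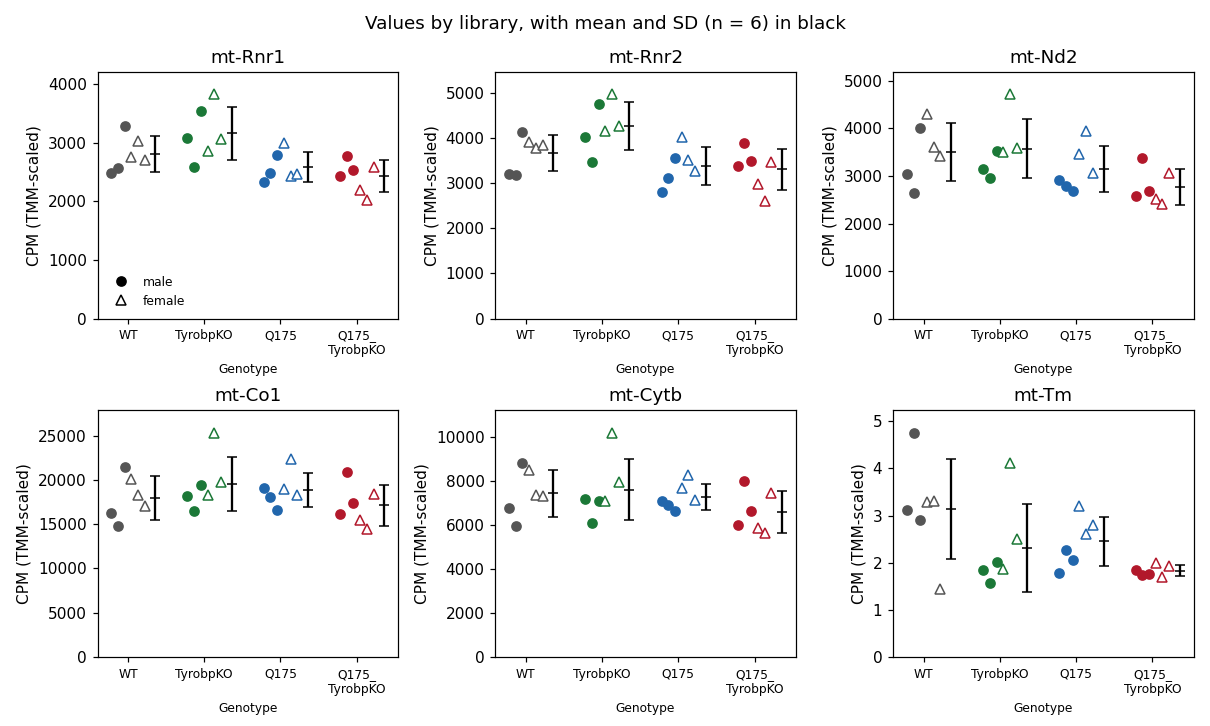
TMM-scaled CPM of 6 mitochondrial genes in each of 24 libraries by genotype (filled circles male, open triangles female), with the mean and SD of 6 libraries in black. In Q175_TyrobpKO, mt-Rnr1 and mt-Rnr2 lie at 2032 to 2781 and 2610 to 3890 CPM, partly below the TyrobpKO range, and mt-Tm is confined to 1.71 to 1.997 CPM.

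The interaction term tested for a Q175 effect that depends on Tyrobp. It called 0 of 32 mitochondrial genes by edgeR and 0% of all genes. DESeq2 and limma-trend called 0 mitochondrial genes. None of the 32 had an unadjusted p under 0.05, against 3.59% of all genes, and the smallest edgeR adjusted p was 0.999. For mt-Rnr1 the interaction was -0.26 ± 0.13 and for mt-Rnr2 -0.25 ± 0.14. A call of the rRNAs without Tyrobp and none with Tyrobp is thus not a shown difference between the contrasts. Females against males gave 0 of 32 called mitochondrial genes by edgeR, and 0.0814% of all genes, with 9 of 32 at an unadjusted p under 0.05 against 4.05% of all genes. All 13 mRNAs lay above 0 there, with a median of 0.11. A dependence of the genotype effect on sex was tested for 32 genes in 5 contrasts, and edgeR called 0 of these 160 values and 0% of all genes. An unadjusted p under 0.05 was found for 31 of the 160. In Q175 against WT it was 1 of 32 (3.8% of all genes) and in TyrobpKO against WT 1 of 32 (7.92% of all genes). In the contrasts that share the Q175_TyrobpKO libraries it was 8 of 32 against Q175 (6.19% of all genes), 11 of 32 against TyrobpKO (4.24%) and 10 of 32 against WT (4.14%).

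Within the mitochondrial mRNAs, the part taken by mt-Nd2, a core subunit of the proton-pumping arm of complex I, was on average lower in carriers of the Q175 allele. This share removes whatever raises or lowers all mitochondrial mRNAs of a library together. It was 8.02% ± 0.339 in WT and 7.67% ± 0.234 in TyrobpKO, against 7.15% ± 0.389 in Q175 and 6.91% ± 0.180 in Q175_TyrobpKO (SD, n = 6). The ranges were 7.35% to 7.98% in TyrobpKO and 6.57% to 7.09% in Q175_TyrobpKO, without overlap. In WT they were 7.64% to 8.62% and in Q175 6.76% to 7.65%, so that Q175 replicate 4, at 7.65%, was the only Q175 library above the lowest WT library. The share of mt-Co1 was 41.4% ± 1.21 for WT and 42.1% ± 0.495 for TyrobpKO, and it was 43.2% ± 0.973 for Q175 and 42.7% ± 0.610 for Q175_TyrobpKO. The share of mt-Nd1 was on average lower in carriers too, with overlapping ranges. It was 11.3% ± 0.299 in WT and 11.2% ± 0.263 in TyrobpKO, against 10.6% ± 0.513 in Q175 and 10.8% ± 0.249 in Q175_TyrobpKO. A lower share was thus not particular to mt-Nd2. Shares of the other mRNAs are not given here, and no share was tested.

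Much of the spread was common to the abundant genes of a library. TyrobpKO replicate 5 had the highest CPM of all 24 libraries for each of the 7 abundant mRNAs and both rRNAs. The lowest library was Q175_TyrobpKO replicate 5 for 5 of these 9 genes, WT replicate 2 for 3 and Q175 replicate 3 for 1. For mt-Cytb the extremes were 5614 and 10191 CPM, and for mt-Co1 14501 and 25353 CPM.

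**Figure D4:**
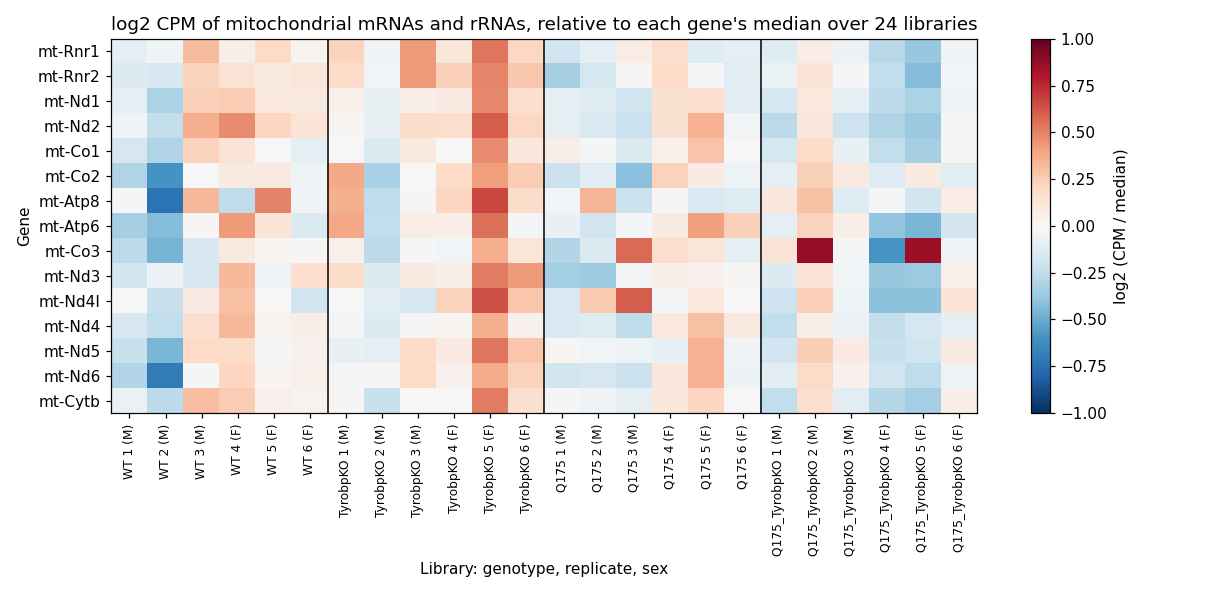
Log2 of CPM over each gene's median of 24 libraries, for the 13 mRNAs and 2 rRNAs (rows, in chromosome order) in every library (columns, by genotype, replicate and sex); red is above and blue below the median. Columns are mostly of 1 colour, as in TyrobpKO replicate 5, while mt-Co3 departs from its neighbours in Q175 replicate 3 and Q175_TyrobpKO replicates 2 and 5.

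mt-Co3 did not follow its neighbours. It was at 121 CPM in Q175_TyrobpKO replicate 2, 119 in Q175_TyrobpKO replicate 5 and 97.3 in Q175 replicate 3, while the next library, TyrobpKO replicate 5, had 84.2 and the lowest 43.5. Its identical nuclear copy Gm28437 ran from 32.6 to 89.2 CPM with a median of 44.8. The ratio of mt-Co3 to Gm28437 reads had a median of 1.40. It was 3.65 in Q175_TyrobpKO replicate 5, 2.70 in Q175 replicate 3 and 2.25 in Q175_TyrobpKO replicate 2. It was lowest, at 0.832, in Q175 replicate 4, where Gm28437 reached 89.2 CPM. The ratio of mt-Nd4l to its copy Gm10222 had a median of 1.48 and was highest in Q175 replicate 3, at 2.35. The same library had the highest ratio of mt-Atp6 to Gm10925, at 0.871 against a median of 0.694, and the highest choroid plexus marker sum of the series. Within Q175_TyrobpKO, that sum was lowest in replicate 5, at 44.7 CPM. It was highest in replicate 6, at 619 CPM, where mt-Co3 was at 63.3 CPM. A link of mt-Co3 to these markers was not tested.

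Of the other copies, Gm28661 kept the steadiest ratio to its partner. The ratio of mt-Co2 to Gm28661 stayed between 0.819 and 1.03, with a median of 0.867. mt-Nd3 had 8.32 to 17.9 times the reads of Gm28438, mt-Nd4 94.7 to 152 times those of Gm28439, and mt-Co1 239 to 699 times those of Gm29216. Gm29216 was highest in TyrobpKO replicate 3, at 81.5 CPM, where the ratio was lowest. Of the 6 copies listed, edgeR called 0 in each genotype contrast, and it called 0 of the 5 mRNAs with 97.6% or more of windows shared. An unadjusted p under 0.05 was found for 2 of the 6 copies in TyrobpKO against WT and 1 in Q175_TyrobpKO against TyrobpKO, and for 0 in the other contrasts. DESeq2 and limma-trend called 0 of the copies. Where a copy has the letters of its partner, the source of reads cannot be told apart by sequence. Gm29216 differs from mt-Co1 near its start, and mt-Co1 and mt-Nd4 extend beyond their copies, so that part of their reads can be.

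**Figure D5:**
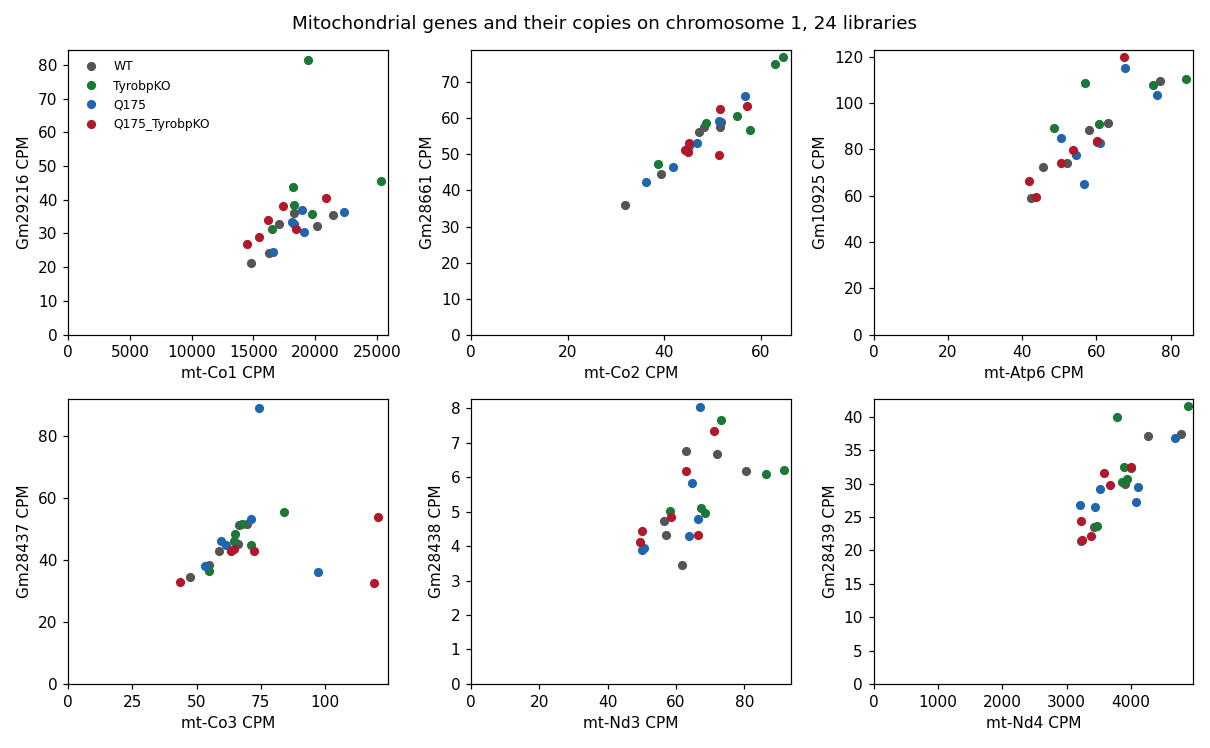
CPM of 6 mitochondrial genes (x axes) against the CPM of their copies on chromosome 1 (y axes), 1 point per library, coloured by genotype. mt-Co2 and Gm28661 keep a ratio of 0.819 to 1.03, while 3 libraries lie to the right for mt-Co3 and Q175 replicate 4 lies above, at 89.2 CPM of Gm28437.

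Nuclear genes that serve the mitochondrial genome were examined from lists. Of 34 tested genes for mitochondrial RNA synthesis and processing, edgeR called 1 lower and 1 higher in Q175 against WT, where 9.63% of all genes were called. The share called in the list was below that. The lower was Ptcd1, a pentatricopeptide protein that acts on mitochondrial RNA, at -0.54 ± 0.08 (edgeR adjusted p 1.99e-05). The higher was Trub2, a pseudouridine synthase of mitochondrial RNA, at 0.23 ± 0.06 (edgeR adjusted p 0.0188). In Q175_TyrobpKO against TyrobpKO, which shares no library with that contrast, the same 2 genes were called, at -0.35 ± 0.08 (Ptcd1, edgeR adjusted p 0.00418) and 0.22 ± 0.06 (Trub2, edgeR adjusted p 0.0333). The 2 of 34 is near the 5.86% of all genes called there. Against WT, Q175_TyrobpKO also had Fastkd5, a protein needed to process mitochondrial mRNAs, lower at -0.59 ± 0.16 (edgeR adjusted p 0.0202). In that contrast 1 of the 34 was called higher and 2 lower, and 9.44% of all genes were called. The calls of Ptcd1 in both contrasts stayed when any 1 library was left out, with edgeR adjusted p up to 0.0191. That of Trub2 was lost without Q175 replicate 6 in Q175 against WT. In Q175_TyrobpKO against TyrobpKO it was lost without TyrobpKO replicate 3 or 6 or any of Q175_TyrobpKO replicates 1 to 5 (edgeR adjusted p up to 0.0948). That of Fastkd5 was lost without WT replicate 2 or 3 or Q175_TyrobpKO replicate 5 (edgeR adjusted p up to 0.0762). The list's median was 0.01 in Q175 against WT, close to the 0.01 of all genes.

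Of 18 genes for maintenance of mitochondrial DNA, edgeR called 1 higher and 1 lower in Q175 against WT, a share near the 9.63% of all genes. Rrm2b, a ribonucleotide reductase subunit that supplies nucleotides to resting cells, was the higher (0.23 ± 0.06, edgeR adjusted p 0.00743). It was also called in Q175_TyrobpKO against TyrobpKO, where 5.86% of all genes were (0.20 ± 0.06, edgeR adjusted p 0.0327). Dguok, the mitochondrial deoxyguanosine kinase, was the lower (-0.33 ± 0.08, edgeR adjusted p 0.0128). Both calls in Q175 against WT stayed when any 1 library was left out. In Q175_TyrobpKO against TyrobpKO that of Rrm2b was lost without TyrobpKO replicate 1, 2, 4 or 5 or Q175_TyrobpKO replicate 1, 2, 3 or 6 (edgeR adjusted p up to 0.0979). Of 10 regulators of mitochondrial biogenesis edgeR called 0 in Q175 against WT, with Ppargc1b at -0.31 ± 0.13 (edgeR adjusted p 0.144) and Pprc1 at 0.15 ± 0.08 (0.281) of smallest p. There 1 of the 10 had an unadjusted p under 0.05, and DESeq2 and limma-trend called 0. In both contrasts of the Tyrobp deletion, edgeR, DESeq2 and limma-trend called 0 genes of these 3 lists. The genes at an unadjusted p under 0.05 in TyrobpKO against WT and in Q175_TyrobpKO against Q175 numbered 3 and 2 of 34 for RNA synthesis and processing, 0 and 0 of 18 for maintenance, and 2 and 2 of 10 for biogenesis. Among all genes the shares were 6.45% and 6.04%.

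Subunits of the same complexes encoded in the nucleus were set beside the mitochondrial ones. In Q175 against WT edgeR called 0 of 36 nuclear subunits of complex I, 0 of 4 of complex II, 0 of 9 of complex III, 0 of 11 of complex IV and 0 of 16 of the ATP synthase. An unadjusted p under 0.05 was found for 2, 1, 1, 0 and 2 of them in the same order, and DESeq2 called 1, in complex III, and limma-trend 0. Among all genes 9.63% were called and 22.6% had an unadjusted p under 0.05. Those of smallest p were Ndufs3 (-0.20 ± 0.07, edgeR adjusted p 0.0743) and Ndufa5 (-0.24 ± 0.11, 0.206) of complex I, Sdhc (0.12 ± 0.06, 0.212) and Sdhd (0.09 ± 0.08, 0.588) of complex II, and Cyc1 (0.19 ± 0.06, 0.0551) and Uqcrfs1 (0.10 ± 0.05, 0.273) of complex III. For complex IV they were Cox6a1 (0.16 ± 0.09, edgeR adjusted p 0.307) and Cox6b1 (0.08 ± 0.08, 0.639), and for the ATP synthase Atp5g1 (0.19 ± 0.07, 0.0723) and Atp5b (0.12 ± 0.05, 0.150).

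In Q175_TyrobpKO against TyrobpKO, where the mitochondrial mRNAs lay mostly below 0, the nuclear subunits lay mostly above it. For complex I, 0 of 7 mitochondrial subunits and 26 of 36 nuclear ones lay above 0, with medians of -0.26 and 0.06. For the ATP synthase, 0 of 2 mitochondrial and 12 of 16 nuclear subunits did, with medians of -0.23 and 0.07. For complex IV, 1 of 3 mitochondrial subunits, mt-Co3, and 9 of 11 nuclear ones did, with medians of -0.14 and 0.04. For complex III, mt-Cytb was at -0.20 and 5 of 9 nuclear subunits lay above 0, with a median of 0.09. Of the nuclear subunits edgeR called 2 of 36 in complex I, 0 of 4 in complex II and 0 of 9 in complex III. It called 0 of 11 in complex IV and 1 of 16 in the ATP synthase, while 5.86% of all genes were called. The called nuclear subunits were higher: Ndufv3 (0.31 ± 0.09, edgeR adjusted p 0.0282) and Ndufb6 (0.36 ± 0.11, 0.0432) of complex I and Atp5g1 (0.32 ± 0.07, 0.00439), a ring subunit of the ATP synthase. The call of Atp5g1 stayed when any 1 library was left out. That of Ndufv3 was lost without replicate 3 or 4 of either genotype (edgeR adjusted p up to 0.0757), and that of Ndufb6 without any of 8 libraries (up to 0.110), which were TyrobpKO replicates 3 to 6, Q175 replicate 6 and Q175_TyrobpKO replicates 1, 4 and 5. In Q175_TyrobpKO against Q175, complex I had 0 of 7 mitochondrial and 29 of 36 nuclear subunits above 0. Complex IV had 2 of 3 and 10 of 11 there, and the ATP synthase 1 of 2 and 13 of 16. Against WT, complex I of Q175_TyrobpKO had 2 of 7 and 28 of 36. Opposed directions in complex I were thus seen in each contrast of the Q175_TyrobpKO libraries. The difference between the mitochondrial and nuclear subunits was not tested.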

How the data were processed

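The authors deposited 1 table of raw read counts per gene for 24 libraries (whole numbers, not normalized). The submitters' processing notes name STAR, featureCounts and DESeq2 without versions, and list the build GRCh38, although the table holds mouse genes. All 37 mitochondrial rows have the positions of GENCODE release M21 (GRCm38), whose transcript sequences were used here. How strand, multi-mapped reads and overlaps were handled is not given in the sources used here.

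Counts were tested with edgeR 4.0.16 in R 4.3.3 (quasi-likelihood test, TMM, filterByExpr on genotype, robust, 24 libraries, a mean per genotype and a sex term). Genes were called at an adjusted p under 0.05. The test was checked on simulated data. CPM are TMM-scaled; SE derive from the test statistic. P-values measure the spread between libraries, each with its own animal label (prefix with number). Alternatives were DESeq2 1.42.0, limma-trend (limma 3.58.1), other scalings, no filter, no sex term, subsets of libraries, and leaving out each library. Nuclear matches were searched in annotated transcripts only. The members, gene lists and named genes were chosen with earlier results of these data known. By rule, named genes were every mitochondrial mRNA, rRNA and nuclear copy, the 3 tRNAs with most reads, tRNAs past the filter (of these the called are described), up to 4 called genes per contrast of the RNA, maintenance and biogenesis lists (or else the 2 with the lowest p for Q175 against WT), plus 2 subunits per complex chosen likewise. Ndufv3, Ndufb6, mt-Tk, mt-Tf, mt-Ts1, mt-Td, mt-Tv and Gm10222 were named after their values or sequences were seen. Other lists held markers of blood and nuclear-retained RNA, with 0 of 3 and 0 of 6 genes called by edgeR in Q175_TyrobpKO against TyrobpKO (0 and 1 at an unadjusted p under 0.05, 0 and 1 by DESeq2 and by limma-trend).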

Additional observations from a re-analysis of the deposited data

Results flagged for a closer look

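Values were marked where the highest or lowest of 6 libraries of a genotype stood far from the other 5. Chance alone marks about 1 in 20 groups, and 9 of the 112 groups tested were marked.

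In 4 mitochondrial genes the library was TyrobpKO replicate 5. mt-Co1 was at 25353 CPM there, mt-Nd4 at 4889, mt-Nd2 at 4715 and mt-Tm at 4.11, with the next TyrobpKO library at 19771, 3939, 3585 and 2.50 CPM. In Q175, mt-Nd5 was at 5565 CPM in replicate 5, against 4429 in the next library, and mt-Atp8 was at 5.34 CPM in replicate 2, against 4.25.

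The other 3 were nuclear copies. Gm28437, the copy of mt-Co3, was at 89.2 CPM in Q175 replicate 4, against 53.2 in the next Q175 library. Gm28439, the copy of mt-Nd4, was at 36.8 CPM in Q175 replicate 5, against 29.5. Gm29216, the copy of mt-Co1, was at 81.5 CPM in TyrobpKO replicate 3, against 45.5.

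Genotype effects on mitochondrial genes were also compared between the sexes in 160 tests over 5 contrasts. None was called by edgeR (smallest adjusted p 0.484), and 31 of the 160 had an unadjusted p under 0.05, of which 8, 11 and 10 came from Q175_TyrobpKO against Q175, TyrobpKO and WT, which share 6 libraries.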

How the results depend on the processing

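Each result was recomputed under 33 alternatives. No paired analysis was possible because no animal label (prefix with number) recurs across genotypes. Some digits recur under different prefixes, and the labels name no pairs. Counts of 0 called mitochondrial genes in Q175 against WT, TyrobpKO against WT, Q175_TyrobpKO against Q175 and the interaction stayed at 0 in all alternatives run (the interaction could not be fitted in only the libraries compared). In Q175_TyrobpKO against TyrobpKO the 2 calls became 4 with DESeq2, 1 with no filter and 0 in males alone, and 0 to 6 when a library was left out (0 without TyrobpKO replicate 5, 1 without TyrobpKO replicate 3 or Q175_TyrobpKO replicate 4 or 5, and 6 without Q175_TyrobpKO replicate 2). In Q175_TyrobpKO against WT the 1 call became 2 with DESeq2, 2 in males alone and 0 in females alone, and 0 to 2 when a library was left out (0 without Q175_TyrobpKO replicate 5; 2 without WT replicate 6, TyrobpKO replicate 5 or Q175_TyrobpKO replicate 2). The median log2 fold change of the mRNAs moved to -0.28 in females alone and 0.09 in males alone in Q175_TyrobpKO against Q175. It moved to 0.0071 in males and -0.42 in females in Q175_TyrobpKO against TyrobpKO, and to 0.14 in males and -0.26 in females in Q175_TyrobpKO against WT. The causes were not tested. Of 2640 alternative values of single genes, 2619 kept their direction where called and their side of the threshold, 12 lost a call and 9 gained one. Among these 2619 values, 91 that were not called changed sign. Depth limited the tRNAs mt-Tf, mt-Ts1, mt-Td and mt-Tk, which had 12 reads or fewer in all libraries together.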
